A study of Homo sapiens and Mus musculus with 100 samples.

Results

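The genes described here are 52 human genes for plasma proteins of blood coagulation, the complement system and protease inhibition, chosen by symbol. All 52 were listed among the 28035 genes of each human table, and 45 had a mouse-case symbol among the 24940 genes of each mouse table. The 7 without one were C1r, C1s, C5, C4bpa, C4bpb, Serpina1 and Serpina3. Messenger RNA was measured as TPM, read counts scaled by transcript length and by library, in cells and livers kept without vitamin B2 (riboflavin), each set against controls, and the study asked how far the response ran through AhR, the aryl hydrocarbon receptor.

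Most of these proteins are made in the hepatocyte and secreted into blood. Coagulation factors are zymogens that activate one another in a cascade ending in thrombin, the product of prothrombin (F2), which turns fibrinogen into fibrin. Complement works in a similar way: the classical, lectin and alternative routes converge on C3, and the terminal components C5 to C9 build a pore in the target membrane. Serpins, alpha-2-macroglobulin and the inter-alpha inhibitor family hold the proteases of both systems in check, and several of all these genes belong to the acute-phase response of the liver.

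HepG2, a line from 1 human liver tumour, was sampled at days 3, 6, 9 and 12 in deprived (B2_minus) and control (Cont) medium. At day 12, deprived and control HepG2 cells were also compared with and without an inhibitor labelled AhRinh, with and without one labelled IDO_TDOinh, and with an AhR guide RNA or a control guide RNA. The headers of that AhR inhibitor experiment give the inhibitor as 10 µM. A further HepG2 set at day 12 received Kyn or DMSO, each with or without an inhibitor also labelled AhRinh. Its headers give no dose of the inhibitor, and its labels give no riboflavin state. Caco-2, a line from 1 human colon tumour with enterocyte features, was sampled at day 9 in deprived and control medium. Mouse hepatocytes from AhR flox animals were given Ad_Cre or Ad_Cont in deprived and control medium, and mouse livers came from B2_minus and Control groups at 4 weeks, the time that the hepatocytes also carry. Each group had 3 libraries, and each liver group had 4 columns that carry the diet but no animal number. Not given in the sources used here are whether the guide RNA cells are a pool or 1 clone and the strain, sex and age of the mice. Replicates are not said to be separate cultures, so p-values measure a spread between samples that may be technical.

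Reads recovered from the deposited values numbered between 4049600 (Kyn set) and 19644000 (liver) per library, and their number limits the precision of members near 1 TPM. The 8 hepatocyte markers (ALB, TTR, APOA1 and others) were present in all tables, and in HepG2 at day 12 they summed to 9639 to 9907 TPM in deprived cultures, against 31230 to 32570 TPM in control cultures. HepG2 is a cell line, so its marker sums describe expression and do not count cell types. In the bulk libraries of mouse liver and mouse hepatocytes, fewer cells of a type and less RNA per cell cannot be told apart. At the same day, 5 cholangiocyte markers summed to 1239 to 1276 TPM in deprived cultures, against 249.8 to 262.4 TPM in control cultures, and the 9 stellate cell markers to 138 to 146 TPM, against 33.0 to 38.9 TPM, with DES and LUM at 0 in both groups and DCN at 0 in deprived cultures. SPP1 carried most of the first sum (means of 955 TPM in deprived and 9.31 TPM in control cultures) and ACTA2 nearly all of the second (143 and 35.8 TPM in deprived and control cultures), while SOX9 averaged 112 TPM in deprived and 140.4 TPM in control cultures. These sums moved with the member values below, and their part in them was not tested. Among the controls with AhR inhibitor, replicate 3 stood apart: its chi-square per gene against each partner was 29.3 and 27.6, while the partners gave 7.81 between them. AHR did not mark the guide RNA groups: it was at 7.94, 8.09 and 7.06 TPM in deprived cells with AhR guide, 4.48, 4.77 and 4.88 TPM in control cells with AhR guide, 8.26, 6.09 and 6.07 TPM in deprived cells with control guide and 4.54, 4.37 and 6.51 TPM in control cells with control guide. Mouse Ahr was at 6.78, 6.99 and 7.52 TPM with Ad_Cre in deprived medium and at 10.7, 10.1 and 9.89 TPM with Ad_Cont in the same medium. A 3′ library reads the end of a transcript, so where the edited or deleted part lies elsewhere these levels check nothing.

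In HepG2 cells, deprivation moved few of these genes at day 3 and more than 50% of those tested from day 6 on. The direction was mixed at day 6 and mainly down at days 9 and 12. The most lowered were ITIH3, a heavy chain of the inter-alpha inhibitor, and A2M (alpha-2-macroglobulin), which traps proteases of many classes, with differences at day 12 of -2.52 and -2.45. The most raised were C1S, a protease of the classical complement route, SERPING1, the inhibitor of that protease, and C6 of the membrane pore, at 1.54, 1.35 and 1.24. These are differences in log2(TPM + 1), deprived minus control, tested with limma and adjusted by the Benjamini-Hochberg method over all 12488 genes that reached 1 TPM in at least 3 libraries, with a threshold of 0.05. The scale understates the change of genes near 1 TPM. All 52 members are accounted for by 45 that passed this filter and 7 that did not.

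At day 3, 1 member rose and 3 fell (background over all genes 2.74% higher and 2.00% lower), and the median difference was -0.10 over the members and 0.02 over all genes. The 1 that rose was F7 (coagulation factor VII), and the 3 that fell were A2M, F5 and CFI, the protease that cuts C3b, by 0.36 at most. Without control replicate 2 or deprived replicate 2 the day 3 count was 1 and F7 was not called, without control replicate 1 or deprived replicate 3 it was 2, and with each library scaled to the same median it was 7, as 1 higher and 6 lower. At day 6, 10 rose and 15 fell (background 19.0% and 14.0%), and the extremes were F7, C8G and C1S at 0.92, 0.63 and 0.53 and A2M, MBL2 and CPB2 at -0.93, -0.91 and -0.78. At day 9, 6 rose and 30 fell (background 29.4% and 19.7%), with medians of -0.43 over the members and 0.06 over all genes. C8G, C1S and C6 stood at the top of these, at 1.50, 0.65 and 0.60, and A2M, ITIH3 and F5 at the bottom, at -2.17, -1.75 and -1.45. At day 12, 10 rose and 24 fell (background 34.0% and 18.4%), with medians of -0.36 over the members and 0.10 over all genes, so fewer of the members than of all genes rose and more fell. The members took 1.37% of all listed TPM in deprived cultures at day 12, against 1.98% in control cultures, and at day 3 they took 0.978% against 1.04%.

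**Figure D1:**
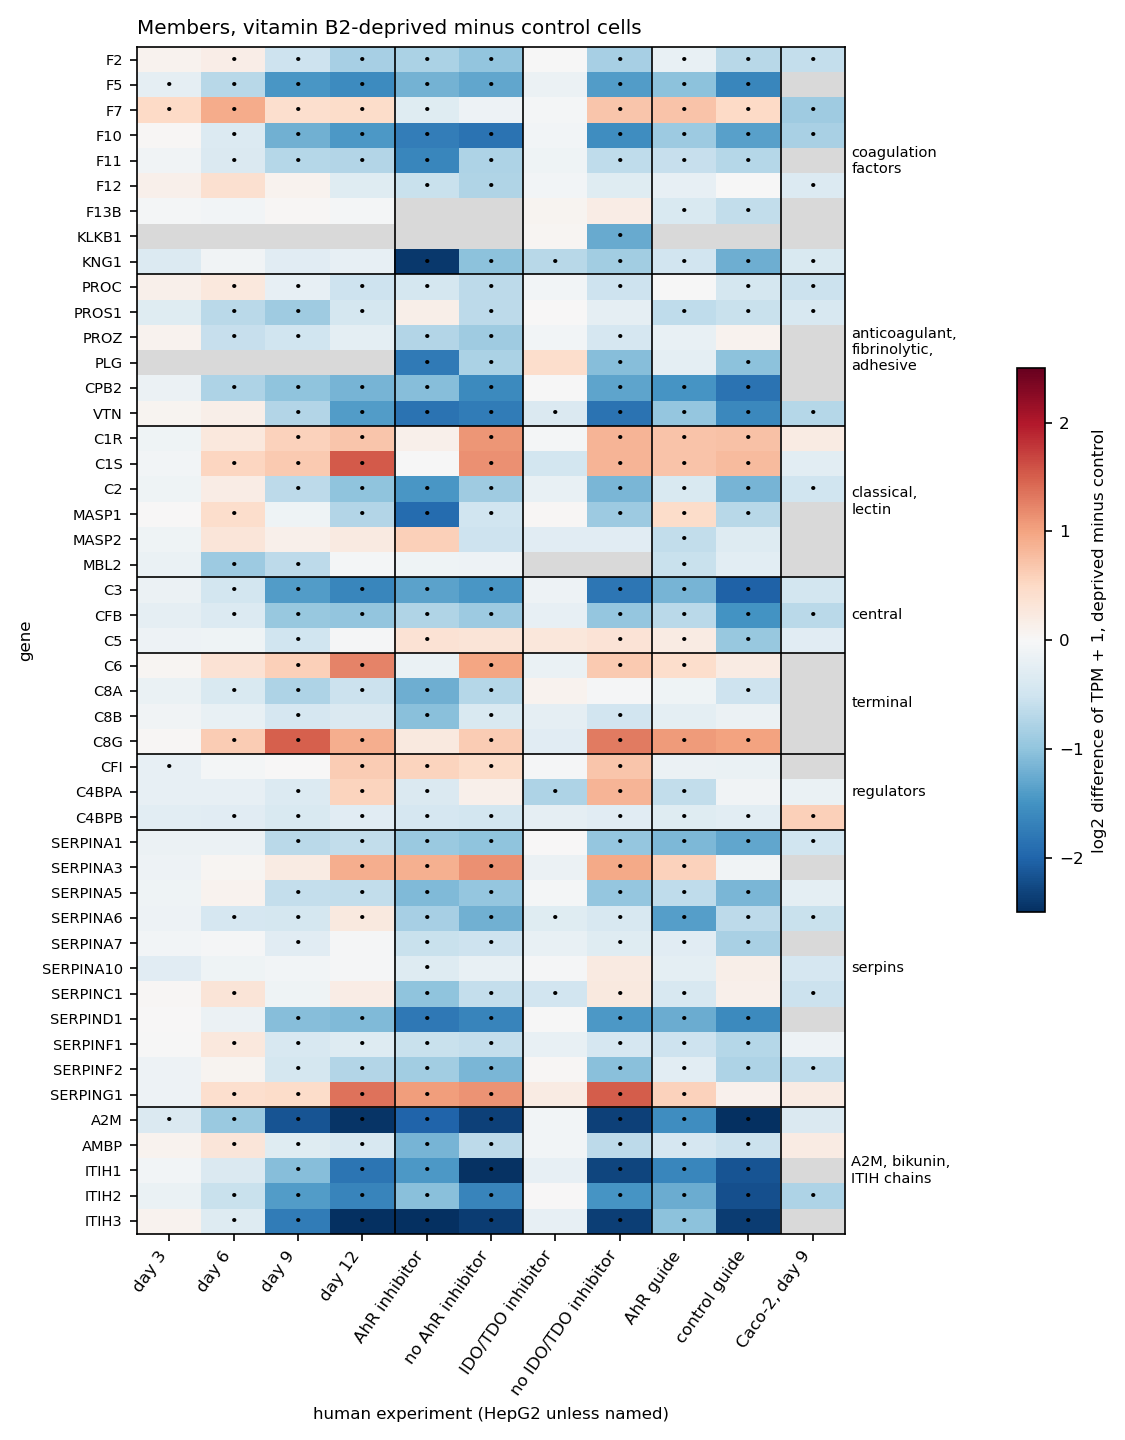
Differences in log2(TPM + 1), deprived minus control, of the members tested in at least 1 human experiment (rows, by role) across 11 comparisons (columns); dots mark an adjusted p under 0.05 and grey marks members below the filter. The A2M and ITIH rows are lowered in the HepG2 columns from day 9 on, except with the IDO/TDO inhibitor, and C1R, C1S and C8G are raised at day 12, without inhibitor and with the control guide.

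The group of A2M, AMBP (the precursor of bikunin, the inhibitor that the ITIH chains carry) and the inter-alpha inhibitor chains moved 1 way at day 12: all 5 tested members fell, with a median difference of -1.82. ITIH3 was at 14.1, 14.9 and 13.8 TPM in deprived cultures, against 91.7, 88.0 and 79.9 TPM in control cultures. The groups did not overlap, and ITIH3 fell by 2.52 (SE 0.10, adjusted p = 1.18e-15). Here and below, non-overlap only describes the libraries of the gene named. The share of all genes without overlap is not given, so non-overlap does not set members apart from other genes. A2M was at 320.3, 309.6 and 328 TPM, against 1862, 1685 and 1715 TPM, and fell by 2.45 (SE 0.07, adjusted p = 2.08e-18). All deprived libraries of A2M lay below all control libraries from day 3 on, where the values were 296, 253 and 266 TPM, against 354, 349 and 344 TPM. The A2M locus (hg38 chr12:9067708-9116229, minus strand) overlaps the antisense gene A2M-AS1, and no strand setting of the counting is given, so reads from the pair cannot be told apart. ITIH2 was at 164, 169 and 166 TPM in deprived cultures, against 517, 499.8 and 554 TPM in control cultures, and fell by 1.65 (SE 0.05, adjusted p = 6.52e-17). ITIH1 followed at -1.82, and AMBP moved least, at -0.41.

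Of 8 coagulation factors tested, 4 fell at day 12 and 1 rose. F5, the cofactor of factor Xa, was at 10.6, 10.4 and 11.5 TPM in deprived cultures, against 33.7, 34.2 and 34.9 TPM in control cultures, and fell by 1.58 (SE 0.06, adjusted p = 9.54e-16). F10, the zymogen of factor Xa itself, was at 29.8, 27.2 and 29.7 TPM, against 82.6, 81.4 and 76.6 TPM, and fell by 1.44 (SE 0.08, adjusted p = 1.55e-12). F2, the thrombin precursor, was at 221, 228 and 225 TPM, against 387, 413 and 394 TPM, and fell by 0.82 (SE 0.05, adjusted p = 3.84e-12). None of these 3 factors, which meet in the step that makes thrombin, had overlapping groups. F11, a factor of the intrinsic route, also fell, at -0.73. F7, which starts the cascade together with tissue factor, went the other way: it was at 12.3, 12.8 and 10.5 TPM in deprived cultures, against 8.52, 7.57 and 9.01 TPM in control cultures, and rose by 0.46 (SE 0.11, adjusted p = 0.00188). F7 was called higher at all 4 days, by 0.50, 0.92, 0.43 and 0.46 at days 3, 6, 9 and 12. At day 12 in the AhR inhibitor experiment it was not called without the inhibitor, at -0.12, and was called lower with it, at -0.30. F12, KNG1 and F13B were not called at day 12.

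Among anticoagulant, fibrinolytic and adhesive proteins, 4 of 5 tested members fell at day 12 and none rose. Vitronectin (VTN), an adhesive protein that binds the terminal complement complex, was at 23.6, 23.7 and 22.2 TPM in deprived cultures, against 66.4, 60.5 and 61.9 TPM in control cultures, and fell by 1.40 (SE 0.07, adjusted p = 4.81e-13). CPB2, a carboxypeptidase that slows the dissolving of fibrin, was at 18.4, 19.8 and 19.0 TPM, against 43.7, 47.2 and 40.7 TPM, and fell by 1.16 (SE 0.09, adjusted p = 1.36e-10). In neither did the groups overlap. Protein C (PROC) and its cofactor protein S (PROS1) fell by less, at -0.53 and -0.44, and protein Z (PROZ) was not called, at -0.24.

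Complement moved in both directions within its routes. Of the classical and lectin members, C1S was at 5.41, 6.01 and 6.20 TPM in deprived cultures, against 0.774, 1.69 and 1.79 TPM in control cultures, and rose by 1.54 (SE 0.14, adjusted p = 3.85e-09). C1R, the protease that activates C1S, was at 1.86, 2.58 and 1.38 TPM, against 0.767, 0.741 and 0.844 TPM, and rose by 0.70 (SE 0.16, adjusted p = 0.000644). Neither had overlap between the groups, although the values rest on few reads, and the genes are neighbours on chromosome 12 (hg38 chr12:7060661-7071031, plus strand, and chr12:7080211-7092607, minus strand). C2, which C1s cleaves, went down: it was at 49.7, 47.8 and 46.8 TPM in deprived cultures, against 101, 97.6 and 94.2 TPM in control cultures, and fell by 1.01 (SE 0.08, adjusted p = 3.42e-10). C2 had no overlap either, and MASP1 of the lectin route fell too, at -0.74. C3, on which all routes converge, was at 78.4, 76.5 and 79.5 TPM, against 260.3, 238 and 239 TPM, and fell by 1.64 (SE 0.06, adjusted p = 7.1e-16). Its partner in the alternative route, factor B (CFB), was at 34.7, 34.1 and 30.5 TPM, against 63.0, 65.6 and 69.8 TPM, and fell by 0.98 (SE 0.07, adjusted p = 9.82e-11). C3 and CFB thus each had all deprived libraries below all control libraries.

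The terminal and regulating members were mixed as well. C6 was at 4.70, 3.16 and 4.03 TPM in deprived cultures, against 0.875, 1.51 and 0.917 TPM in control cultures, and rose by 1.24 (SE 0.16, adjusted p = 1.23e-06), with no overlap. C8G, the lipocalin-like chain of C8, rose by 0.90, while C8A, another chain of C8, was called lower at -0.54 and C8B was not called. Of the regulators, CFI and C4BPA (the alpha chain of the C4b-binding protein) rose by 0.63 and 0.55, and C4BPB, the beta chain that binds protein S, was called lower at -0.27.

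Of 11 serpins, 3 rose and 5 fell. SERPINA3 (antichymotrypsin, an acute-phase protein) was at 1221, 1357 and 1379 TPM in deprived cultures, against 678, 609 and 821 TPM in control cultures, and rose by 0.92 (SE 0.09, adjusted p = 4.95e-08). SERPING1, which inhibits C1r, C1s and kallikrein, was at 9.24, 9.45 and 9.55 TPM, against 3.33, 2.67 and 3.25 TPM, and rose by 1.35 (SE 0.10, adjusted p = 1.77e-10). Both had every deprived library above every control library. SERPIND1 (heparin cofactor II), a thrombin inhibitor, was at 73.9, 76.0 and 76.9 TPM in deprived cultures, against 166, 172 and 152 TPM in control cultures, and fell by 1.10 (SE 0.08, adjusted p = 2.24e-10). SERPINF2 (alpha-2-antiplasmin) was at 187.4, 186 and 194 TPM, against 317, 306 and 326 TPM, and fell by 0.74 (SE 0.06, adjusted p = 2.55e-10). SERPINA1 (alpha-1-antitrypsin), SERPINA5 (protein C inhibitor) and SERPINF1 fell by less, at -0.62, -0.61 and -0.32. SERPINC1 (antithrombin), the main inhibitor of thrombin, was not called, at 0.18, nor were SERPINA7 and SERPINA10. The rise of the cortisol carrier SERPINA6 was 0.24, and it was not called after quantile normalization or median scaling; nor was AMBP after quantile normalization.

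The promoters of 5 of these genes, 3 that fell and 2 that rose, are given as the 250 bases before the start in RefSeq GRCh38.p14, 5′ to 3′ along the gene's strand. Capitals mark matches, on either strand, to a STAT element (TTCNNNGAA), a C/EBP element (TTNNGNAA), part of the HNF1 element (GTTAAT) and an HNF4 element (CAAAGTNCA). The factors of these names are known for liver and acute-phase genes.
C1R (rose; chr12:7091894-7092143, minus strand): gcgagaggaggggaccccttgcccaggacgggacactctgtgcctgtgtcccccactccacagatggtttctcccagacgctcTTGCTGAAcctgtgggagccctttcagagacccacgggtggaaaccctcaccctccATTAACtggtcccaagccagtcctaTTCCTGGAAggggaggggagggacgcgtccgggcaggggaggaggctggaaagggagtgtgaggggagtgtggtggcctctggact
SERPINA3 (rose; chr14:94612141-94612390, plus strand): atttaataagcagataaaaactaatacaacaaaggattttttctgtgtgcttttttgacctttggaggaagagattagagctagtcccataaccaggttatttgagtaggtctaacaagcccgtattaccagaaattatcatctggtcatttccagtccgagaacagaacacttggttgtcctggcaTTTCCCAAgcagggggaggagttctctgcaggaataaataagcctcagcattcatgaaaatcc
SERPIND1 (fell; chr22:20773863-20774112, plus strand): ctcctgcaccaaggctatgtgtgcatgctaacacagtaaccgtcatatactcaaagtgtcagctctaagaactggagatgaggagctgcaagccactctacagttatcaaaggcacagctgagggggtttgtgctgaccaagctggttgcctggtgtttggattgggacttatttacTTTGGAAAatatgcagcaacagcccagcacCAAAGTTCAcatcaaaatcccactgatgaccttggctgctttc
VTN (fell; chr17:28370308-28370557, minus strand): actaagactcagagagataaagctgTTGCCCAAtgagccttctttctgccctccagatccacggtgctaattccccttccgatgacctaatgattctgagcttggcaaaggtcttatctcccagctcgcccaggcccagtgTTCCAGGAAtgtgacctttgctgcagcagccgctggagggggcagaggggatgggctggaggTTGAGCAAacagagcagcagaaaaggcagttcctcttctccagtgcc
ITIH3 (fell; chr3:52794546-52794795, plus strand): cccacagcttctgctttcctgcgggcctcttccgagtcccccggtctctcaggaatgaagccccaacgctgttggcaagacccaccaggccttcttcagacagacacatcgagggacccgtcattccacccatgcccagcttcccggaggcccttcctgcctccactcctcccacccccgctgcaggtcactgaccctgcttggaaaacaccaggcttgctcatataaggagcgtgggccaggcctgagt
Counted as the first base of the match before the start, C1R held a C/EBP match at 167, an HNF1 match at 111 and a STAT match at 86, SERPINA3 a C/EBP match at 63, SERPIND1 a C/EBP match at 73 and an HNF4 match at 43, and VTN C/EBP matches at 225 and 47 and a STAT match at 109. C1R has 2 starts in that table. Both starts lie inside the gene's listed span. The window given for C1R was chosen for holding more matches, and the window of the other start held C/EBP matches but no STAT or HNF1 match. ITIH3 held none of these letters in this window. Matches therefore stood in promoters of genes that rose and of genes that fell.

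Of the 52 members, 41 had an entry in that table, and shares are given per gene, a gene counting when any of its starts held the letters in those 250 bases. The STAT element was found in 14 members, 34.1%, against 8.09% of all 27305 genes, and the C/EBP element in 24, 58.5%, against 38.1%. Letters of the partial HNF1 element were found in 13 members, 31.7%, against 7.5% of all genes, and HNF4 letters in 5, 12.2%, against 1.17%. The core of the AhR element (TNGCGTG) was found in 1 member, ITIH1, which is 2.44% of the members, against 5.54% of all genes. A match is a description of letters and not a site of binding.

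In control cultures, most of these genes climbed with time, and in deprived cultures fewer did. Between day 3 and day 12, 31 members rose and 8 fell in control medium (background over all genes 20.1% higher and 46.8% lower), with medians of 0.85 over the members and -0.21 over all genes. In deprived medium, 25 rose and 8 fell (background 14.4% and 35.3%), with medians of 0.25 and -0.12, and the split was 29 higher and 4 lower when libraries were scaled to the same median. All 8 tested coagulation factors and all 5 of the A2M and ITIH group were among those that rose in control medium. ITIH3 changed by 0.87 between day 3 and day 12 in deprived medium and by 3.48 in control medium, A2M by 0.23 and 2.32, and VTN by 0.23 and 1.71. C1S, CFI and C1R moved the other way in control medium, at -1.55, -0.98 and -1.02, and the same changes in deprived medium were 0.05, -0.13 and -0.21.

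The deprivation effect at day 12 minus that at day 3, tested in the same fit, was called higher for 9 members and lower for 21 (background 23.8% and 13.9%). It was most negative for ITIH3, at -2.61 (SE 0.14, adjusted p = 1.46e-12), for A2M, at -2.09 (SE 0.09, adjusted p = 8.72e-14), and for ITIH1, at -1.76 (SE 0.22, adjusted p = 1.06e-06). It was most positive for C1S, at 1.59 (SE 0.20, adjusted p = 1.12e-06), for SERPING1, at 1.47 (SE 0.14, adjusted p = 4.01e-08), and for C6, at 1.20 (SE 0.23, adjusted p = 0.000295). Among the members, MASP1 had the largest rise between day 3 and day 12 in deprived medium, 2.08, against 2.84 in control medium. C8G and C6 followed in deprived medium at 1.61 and 1.60, against 0.74 and 0.40 in control medium. The falls over time in deprived medium were led by MASP2, which averaged 1.90 TPM at day 12, against 4.75 TPM at day 3, and by PROS1 and SERPINF1, at -0.95 and -0.44. In control medium MASP2 was at -1.33.

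**Figure D2:**
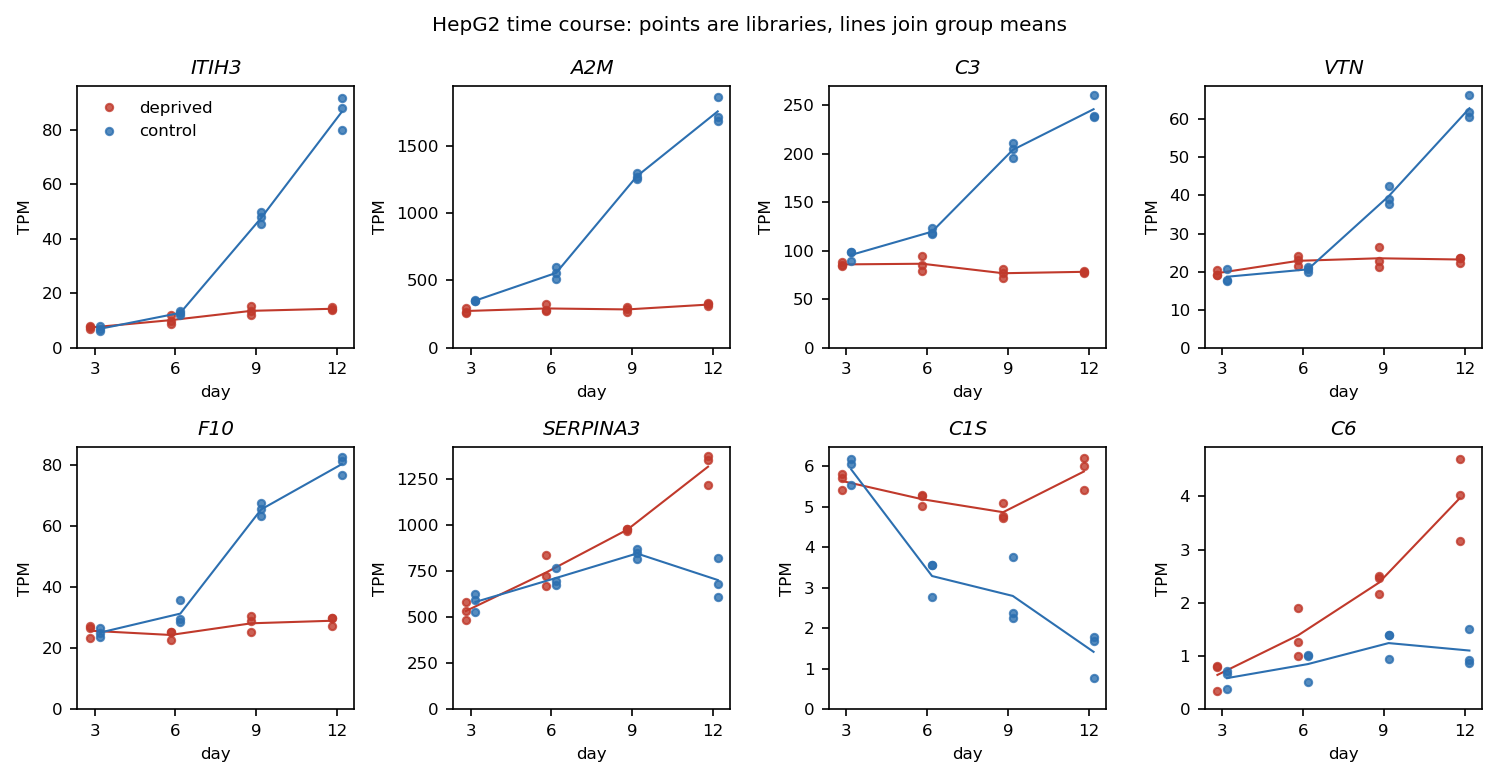
TPM of 8 members in HepG2 cells (y axes, from 0) by day (x axes, days 3, 6, 9 and 12); points are libraries, lines join the means of 3, and deprived libraries are drawn left of control libraries. ITIH3, A2M, C3, VTN and F10 climb in control medium and lie lower in deprived medium at days 9 and 12, while SERPINA3, C1S and C6 lie higher in deprived medium at day 12.

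The members not tested in the time course were F9, KLKB1, PLG, C4A, C4B, C9 and ITIH4, whose highest library was KLKB1 at 1.21 TPM. C4A and C4B are near-identical copies whose reads can be split or lost, so their 0.049 TPM at most says little about either. F10, F11, C2, CPB2 and ITIH4 also overlap listed antisense genes and SERPIND1 lies within PI4KA, so that reads there cannot be assigned for certain. The 11 tested members with no call at day 12 were F12, F13B, KNG1, PROZ, MASP2, MBL2, C5, C8B, SERPINA7, SERPINA10 and SERPINC1. C5 had been called lower at day 9, at -0.49.

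Of the experiments at day 12, 4 compared deprived with control HepG2 cells without inhibitor or AhR guide and shared no library: the time course, the arms without inhibitor of both inhibitor experiments, and the control guide RNA. Members tested in all 4 numbered 43. Of these, 22 were called lower in all 4 (7.95% of all genes) and 3 were called higher in all 4 (25.9% of all genes); after quantile normalization the numbers were 24 and 3. The 22 were F2, F5, F10, F11, PROC, VTN, CPB2, C2, MASP1, C3, CFB, C4BPB, SERPINA1, SERPINA5, SERPIND1, SERPINF1, SERPINF2, A2M, AMBP, ITIH1, ITIH2 and ITIH3, and the 3 were C1R, C1S and C8G. C3 had differences of -1.64, -1.46, -1.81 and -2.02 in the time course, the AhR inhibitor, the IDO/TDO inhibitor and the guide RNA experiment. SERPINA3 showed less accord, with 0.92, 1.13 and 0.95 in the first 3 and -0.09 with the control guide, and SERPING1, C6 and CFI were likewise called higher in 3 and not called with the control guide, at 0.11, 0.20 and -0.17. C5, SERPINA6 and SERPINC1 were called in both directions among the 4 experiments, and MASP2 and SERPINA10 in none. This depended on the scaling. After quantile normalization C5, SERPINA6 and SERPINC1 were called higher in 0 experiments. F7, C4BPA and CFI were then called in both directions, and SERPINA10 was called lower in 1.

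In Caco-2 cells at day 9, the coagulation members that these cells express were lower in deprived medium, and 25 members did not pass the filter. Of the 27 tested, 1 rose and 15 fell (background over 11888 genes 14.3% and 19.5%), with medians of -0.43 over the members and -0.07 over all genes. All 5 tested coagulation factors fell. F7 was at 6.14, 6.48 and 6.17 TPM in deprived cells, against 11.9, 12.6 and 13.1 TPM in control cells, and fell by 0.90 (SE 0.09, adjusted p = 4.98e-05), whereas in the HepG2 time course it rose. F10 was at 23.8, 25.5 and 19.8 TPM, against 42.1, 41.5 and 40.1 TPM, and fell by 0.82 (SE 0.09, adjusted p = 8.09e-05). ITIH2 was at 15.9, 15.8 and 15.5 TPM, against 27.7, 26.2 and 28.7 TPM, and fell by 0.77 (SE 0.07, adjusted p = 3.15e-05). The groups did not overlap in any of these 3. The 1 that rose was C4BPB, at 70.1, 80.3 and 75.6 TPM in deprived cells, against 50.6, 52.5 and 45.2 TPM in control cells, a difference of 0.60. Hepatocyte markers summed to 1740 to 1899 TPM in deprived cells, against 2915 to 3035 TPM in control cells, and 6 enterocyte markers to 74.7 to 78.3 TPM, against 109 to 115 TPM. APOA1 carried most of the first sum (means of 1274 TPM in deprived and 2258 TPM in control cells). VIL1 and CDH17 carried most of the second (23.8 and 44.3 TPM in deprived, 35.3 and 65.1 TPM in control cells), and MTTP and SI were lower too. ALPI was called higher, at 5.09 TPM in deprived and 3.10 TPM in control cells, and FABP2 averaged 0.182 and 0.112 TPM. The part of these markers in the result was not tested. The count of members called was 9 without deprived replicate 3 and 10 after quantile normalization, which dropped C2, SERPINA6, PROS1, SERPINC1, KNG1 and F12.

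With the IDO/TDO inhibitor, deprivation moved 5 of these genes, whereas without it 40 moved. IDO and TDO are enzymes that open the ring of tryptophan on the way to kynurenine. Without the inhibitor, 11 members rose and 29 fell of 46 tested (background over 11470 genes 53.6% and 14.3%), with medians of -0.50 over the members and 0.30 over all genes. With the inhibitor, 0 rose and 5 fell (background 0.854% and 0.532%): C4BPA at -0.76, KNG1 (kininogen, the source of bradykinin) at -0.69, SERPINC1 at -0.48, VTN at -0.36 and SERPINA6 at -0.30. That count was 2 without control replicate 2 or deprived replicate 2 of the inhibitor groups, 3 without control replicate 3, 2 with no filter on low values, where KNG1, C4BPA and SERPINA6 were not called, and 10 with voom weights on recovered reads. Hepatocyte markers moved likewise, summing with the inhibitor to 33960 to 34720 TPM in deprived and 37730 to 38650 TPM in control cells, and without it to 10990 to 11260 TPM in deprived and 36340 to 38430 TPM in control cells.

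The interaction, the deprivation effect with the inhibitor minus that without it, was called higher for 22 members and lower for 10 (background 12.2% and 41.5%). A2M was at 1433, 1387 and 1463 TPM in deprived and 1427, 1565 and 1490.4 TPM in control cells with the inhibitor. Without it, A2M was at 294, 286 and 298 TPM in deprived and 1301, 1547 and 1599 TPM in control cells. The deprived libraries without inhibitor thus lay below those of all other groups, and the interaction was 2.27 (SE 0.09, adjusted p = 1.79e-11). ITIH3 and ITIH1 had interactions of 2.15 (SE 0.09, adjusted p = 2.27e-11) and 2.09 (SE 0.13, adjusted p = 3.11e-09). In the other direction, C4BPA was at -1.62 (SE 0.20, adjusted p = 5.7e-06), C8G at -1.59 (SE 0.22, adjusted p = 3.05e-05) and SERPING1 at -1.32 (SE 0.15, adjusted p = 2.55e-06). By role, the interaction was called higher for all 5 of the A2M and ITIH group, for 4 of 6 anticoagulant and related proteins with none lower, and for 5 of 9 coagulation factors with 1 lower. Complement members and serpins held the remaining calls, in both directions, and with them most of the lower ones.

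Set against libraries without it, the inhibitor raised 27 members and lowered 10 in deprived medium (background 16.1% and 49.6%), with medians of 0.36 over the members and -0.26 over all genes. The highest were A2M at 2.28, ITIH3 at 2.12 and ITIH1 at 1.99, and the lowest C4BPA at -1.37, C8G at -1.37 and C1S at -1.24. These libraries also enter the deprivation effects above. In control medium, limma called 0 members, also with voom weights, with 0 at an unadjusted p under 0.05, and 0.00872% of all genes.

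With the AhR inhibitor, most members were still lower in deprived cells. The headers give libraries with this inhibitor another date and directory than those without, and what was done apart is not stated, so the effect of the inhibitor and that of this batch cannot be told apart, and the interaction carries both. Within the libraries with inhibitor, 4 members rose and 34 fell of 45 tested with deprivation (background over 11916 genes 45.1% and 12.4%), with medians of -0.84 over the members and 0.24 over all genes. Within those without, 7 rose and 32 fell (background 44.6% and 16.9%), with medians of -0.71 and 0.23. Without control replicate 3, the library that stood apart, the first split was 4 higher and 32 lower. A2M was at 345, 327 and 349 TPM in deprived and 1318, 1345 and 1441 TPM in control cells with the inhibitor, and it fell by 2.00 (SE 0.05, adjusted p = 9.42e-12). SERPING1 was at 5.21, 5.79 and 4.64 TPM, against 1.99, 2.47 and 1.60 TPM, and rose by 1.05 (SE 0.12, adjusted p = 1.1e-05). KNG1 was at 0.82, 0.997 and 1.43 TPM, against 10.9, 9.63 and 9.73 TPM, and fell by 2.42 (SE 0.12, adjusted p = 4.76e-09). No groups overlapped in these 3, and without the inhibitor their differences were -2.34, 1.13 and -1.03. Also among the extremes with the inhibitor were SERPINA3 at 0.88, CFI at 0.56 and ITIH3 at -2.63, and without it ITIH1 at -2.47 and ITIH3 at -2.38.

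The interaction with the AhR inhibitor was called higher for 7 members and lower for 11 (background 12.9% and 9.57%), and without that library for 6 and 11. It was lowest for MASP1 at -1.43 (SE 0.16, adjusted p = 3.8e-05), KNG1 at -1.39 (SE 0.17, adjusted p = 8.91e-05) and C1S at -1.16 (SE 0.22, adjusted p = 0.00215), and highest for ITIH1 at 1.04 (SE 0.19, adjusted p = 0.00169), PROS1 at 0.81 (SE 0.12, adjusted p = 0.000349) and ITIH2 at 0.61 (SE 0.09, adjusted p = 0.00028). C1S was at 3.12, 2.95 and 3.15 TPM in deprived and 4.44, 2.61 and 2.55 TPM in control cells with the inhibitor. Without it, C1S was at 5.48, 3.79 and 4.49 TPM in deprived and 1.29, 1.51 and 1.74 TPM in control cells. Its rise with deprivation was therefore called without the inhibitor, at 1.15, and not with it, at -0.02.

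With the AhR guide RNA, deprivation still lowered most members, and for 20 of them the effect lay above that with the control guide. In cells with AhR guide, 9 members rose and 29 fell of 46 tested (background over 11893 genes 37.6% and 15.6%), with a median of -0.39 over the members and 0.15 over all genes. In cells with control guide, 4 rose and 30 fell (background 43.6% and 17.1%), with medians of -0.67 and 0.20. The interaction, AhR guide minus control guide, was called higher for 20 members and lower for 3 (background 6.16% and 8.23%). ITIH3 was at 22.2, 23.8 and 26.7 TPM in deprived and 47.6, 51.1 and 52.5 TPM in control cells with AhR guide. With control guide it was at 20.2, 23.9 and 23.3 TPM in deprived and 128, 125 and 109 TPM in control cells. The control cells of the 2 guides thus differed more than the deprived cells, and the interaction was 1.34 (SE 0.12, adjusted p = 1.49e-05). The members most lowered were ITIH1, A2M and CPB2 with AhR guide, at -1.63, -1.56 and -1.47, and A2M, ITIH3 and ITIH2 with control guide, at -2.54, -2.37 and -2.21. C8G, C1R, C1S and F7 were raised with both guides, by 1.07, 0.71, 0.70 and 0.71 with AhR guide and by 1.00, 0.73, 0.79 and 0.49 with control guide.

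C5, the precursor of the anaphylatoxin C5a, differed by 0.20 with AhR guide and by -0.94 with control guide, and its interaction was 1.14 (SE 0.11, adjusted p = 3.09e-05). MASP1 differed by 0.45 and -0.69, and its interaction was 1.14 (SE 0.15, adjusted p = 0.000273). The 3 members with a negative interaction were SERPINA6 at -0.71 (SE 0.07, adjusted p = 3.51e-05), SERPINC1 at -0.53 (SE 0.13, adjusted p = 0.0179) and C4BPA at -0.51 (SE 0.12, adjusted p = 0.0104). The AhR guide itself, set against the control guide, raised 8 members and lowered 21 in control medium (background 23.3% and 13.4%), where MASP1 was at -1.57, KNG1 at -1.35, ITIH3 at -1.24, SERPINA6 at 1.12, C4BPA at 0.66 and CFI at 0.47. In deprived medium it raised 13 and lowered 3 (background 7.53% and 4.48%), with SERPINA3, ITIH2 and SERPINA7 highest at 0.79, 0.67 and 0.61 and KNG1, MASP1 and AMBP lowest at -0.61, -0.43 and -0.22. Hepatocyte markers summed to 10430 to 10870 TPM in deprived and 24390 to 25630 TPM in control cells with AhR guide, and to 8943 to 9266 TPM in deprived and 31510 to 32560 TPM in control cells with control guide. Their part in the interaction was not tested.

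**Figure D3:**
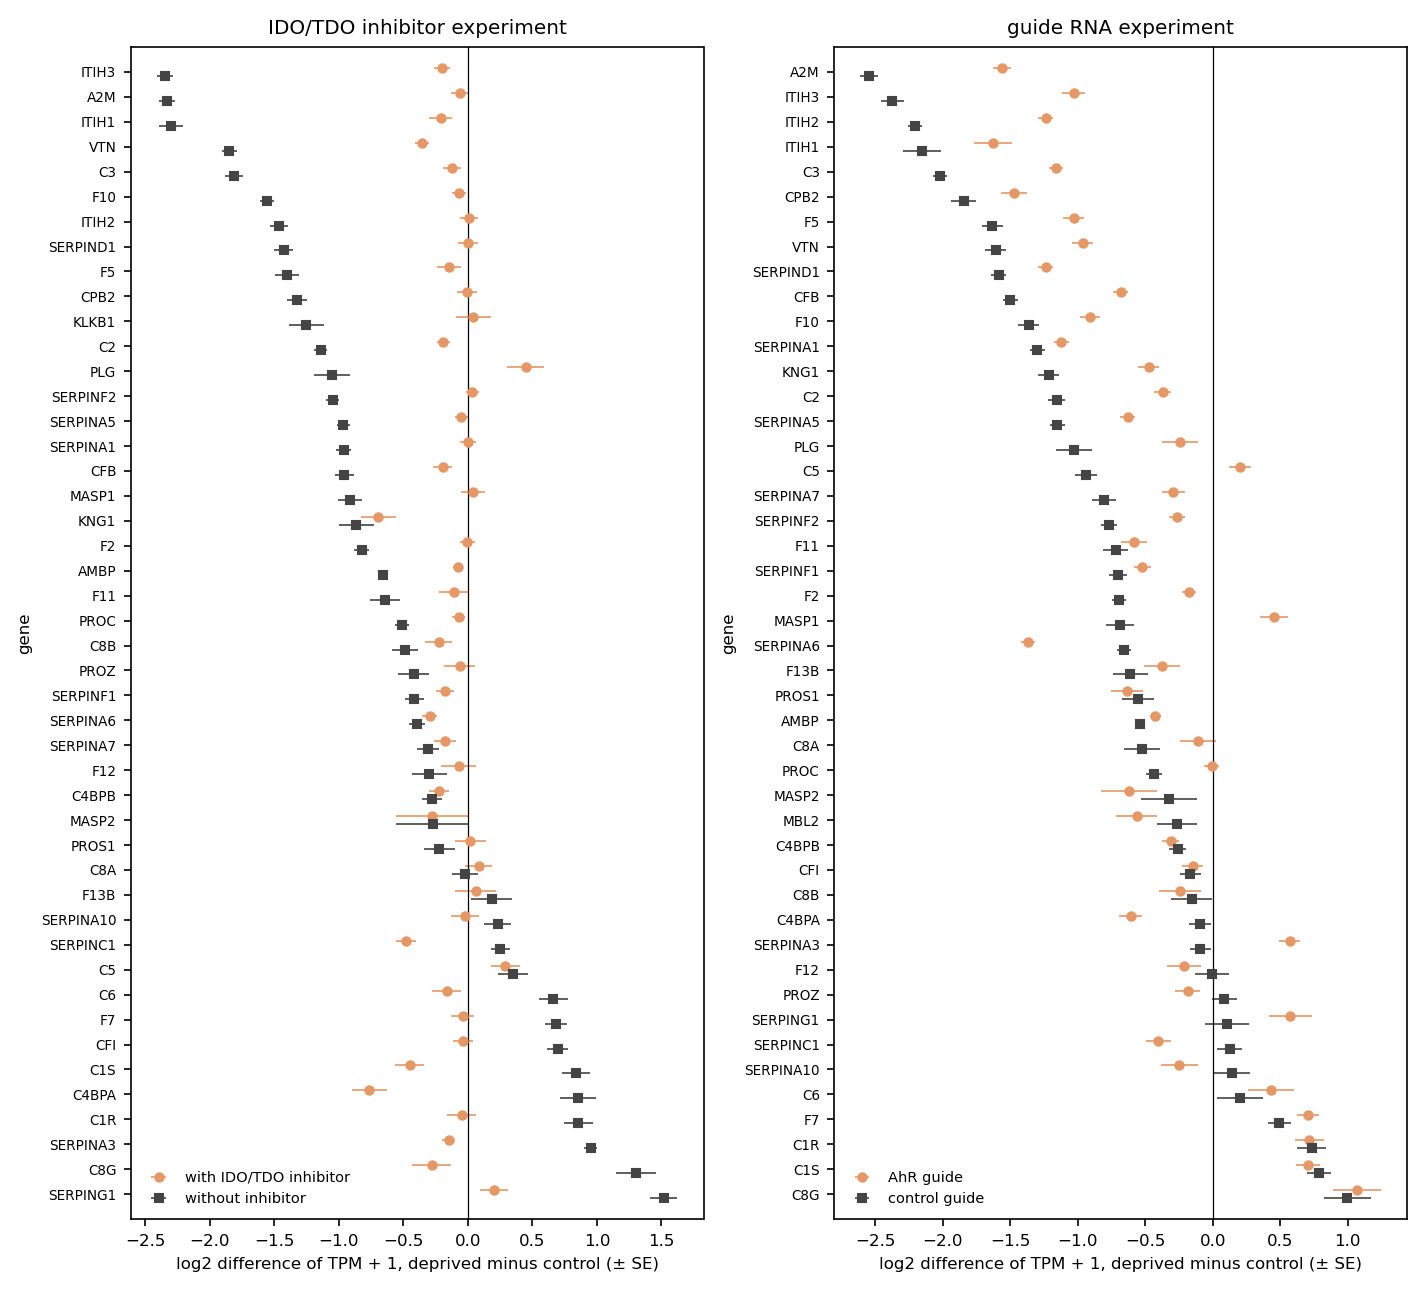
Differences in log2(TPM + 1), deprived minus control (x axes, points with SE bars), of the 46 members tested in each of 2 HepG2 experiments at day 12 (y axes). With the IDO/TDO inhibitor (orange, left) all but a few members lie near 0, from A2M to SERPING1, while with the AhR guide (orange, right) most members that fell with the control guide (grey) lie part of the way towards 0.

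Kyn moved members in both directions, and SERPING1 rose with Kyn without the AhR inhibitor and fell with it. Without the inhibitor, Kyn against DMSO raised 12 members and lowered 6 of 44 tested (background over 11798 genes 6.11% and 5.54%), with medians of 0.05 over the members and 0.02 over all genes, and scaling libraries to the same median gave 9 and 10. With the inhibitor, 8 rose and 10 fell (background 1.74% and 9.10%), and the split was 10 and 8 after quantile normalization and 10 and 7 after median scaling. SERPING1 was at 1.22, 1.17 and 0.755 TPM with Kyn and 4.45, 4.24 and 3.64 TPM with DMSO when the inhibitor was present. Without inhibitor it was at 9.34, 9.18 and 9.69 TPM with Kyn and 3.66, 2.98 and 4.10 TPM with DMSO. Kyn alone was thus the highest group and Kyn with inhibitor the lowest, with differences of -1.32 with and 1.19 without inhibitor and an interaction of -2.51 (SE 0.18, adjusted p = 1.09e-06).

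SERPINA3 was at 122, 113 and 135 TPM with Kyn and 322, 335 and 339.5 TPM with DMSO when the inhibitor was present. Without inhibitor it was at 225, 312 and 279 TPM with Kyn and 342, 320.1 and 322 TPM with DMSO. Its differences were -1.42 with and -0.28 without inhibitor, and the interaction was -1.14 (SE 0.14, adjusted p = 0.000327). ITIH3 was at 33.0, 29.8 and 33.4 TPM with Kyn, against 62.3, 67.3 and 66.3 TPM with DMSO, and fell by 1.00 (SE 0.06, adjusted p = 7.51e-08). With the inhibitor ITIH3 was at 82.6, 83.4 and 83.9 TPM with Kyn, against 62.0, 64.5 and 60.4 TPM with DMSO, and the interaction was 1.42 (SE 0.08, adjusted p = 2.9e-07). KNG1 was higher with Kyn both with the inhibitor, at 1.49, and without it, at 0.72, and its interaction was 0.77 (SE 0.20, adjusted p = 0.0285). Other interactions were 0.83 (SE 0.13, adjusted p = 0.00143) for F11 and -0.91 (SE 0.07, adjusted p = 2.39e-06) for CFI. PLG (plasminogen) was called higher with Kyn at 0.61 with and 0.54 without inhibitor, the first not with the compared groups alone, and SERPINC1 at 0.62 with inhibitor. C5 was called lower at -0.89 with inhibitor, and C4BPA and MASP1 at -0.84 and -0.44 without it.

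Over all members the Kyn interaction was called higher for 7 and lower for 12 (background 2.11% and 6.83%), and for 8 and 9 after quantile normalization and 8 and 8 after median scaling. The inhibitor set against no inhibitor raised 10 members and lowered 16 in the presence of Kyn (background 4.36% and 17.6%), or 14 and 11 after median scaling. ITIH3, C8G and SERPINA6 were highest in that comparison, at 1.35, 1.32 and 0.66, and SERPING1, SERPINA3 and CFI lowest, at -2.35, -1.12 and -0.92. In DMSO limma called 0 members and 0% of all genes, with 3 members at an unadjusted p under 0.05. Hepatocyte markers summed to 22860 to 23690 TPM with Kyn and 19020 to 19520 TPM with DMSO when the inhibitor was present, and to 18400 to 19460 TPM with Kyn and 19140 to 19720 TPM with DMSO without it.

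**Figure D4:**
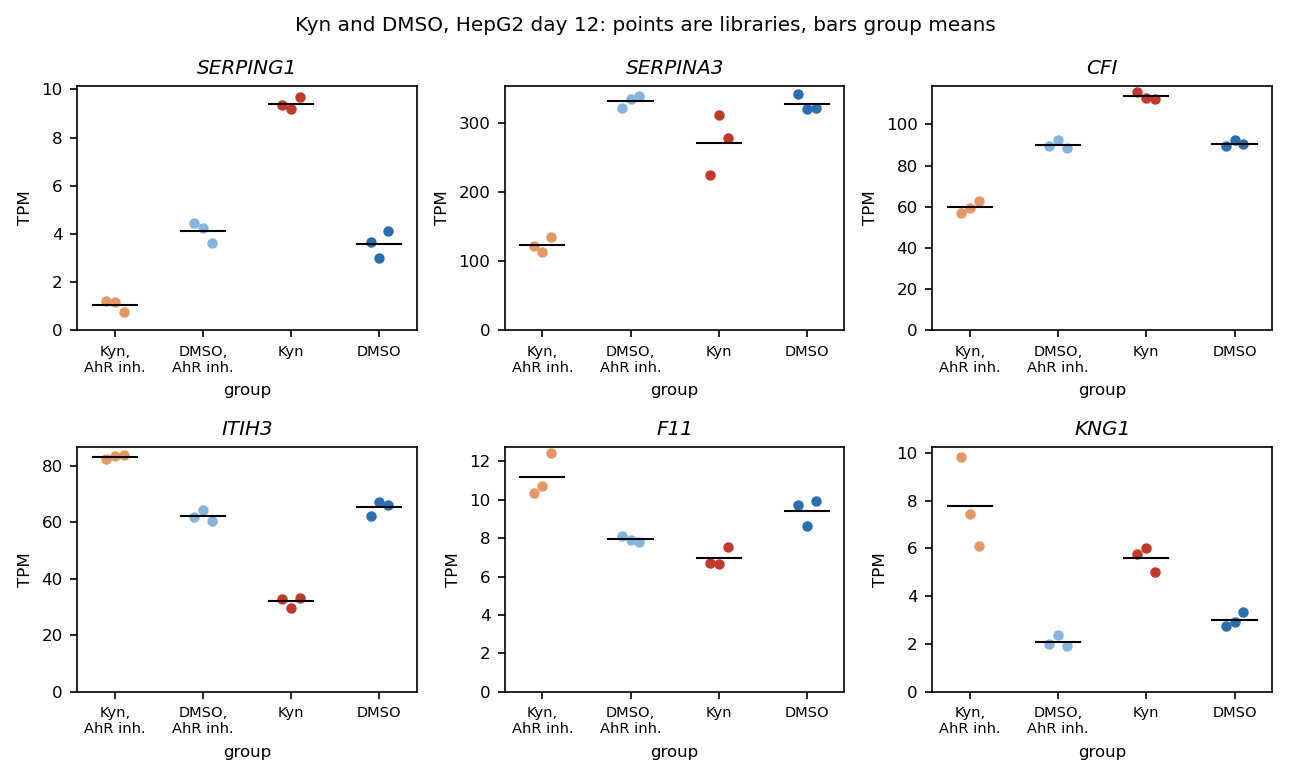
TPM (y axes, from 0) of 6 members in HepG2 cells at day 12 with Kyn or DMSO, with or without the AhR inhibitor (x axes); points are libraries and bars are means of 3. SERPING1, SERPINA3 and CFI are lowest with Kyn plus inhibitor, ITIH3 is lowest with Kyn alone, and KNG1 is highest with Kyn plus inhibitor.

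In mouse hepatocytes with Ad_Cont, 4 of 10 coagulation factors rose and 1 fell, and of 5 terminal complement components C6 and C8b rose and C9 fell. Of 45 members listed, 43 passed the filter. With Ad_Cont, deprived medium raised 11 members and lowered 5 (background over 12155 genes 4.32% and 5.46%), with a member median of 0.04. The raised members included the pore component C8b, at 38.8, 47.8 and 41.3 TPM in deprived cultures, against 23.9, 26.0 and 27.3 TPM in control cultures, which rose by 0.71 (SE 0.09, adjusted p = 0.000144). F10 was at 38.3, 35.5 and 29.3 TPM, against 22.7, 19.3 and 19.8 TPM, and rose by 0.70 (SE 0.10, adjusted p = 0.000784). Neither had overlapping groups. F9, a vitamin K-dependent factor, followed at 0.65, and the lowest were C9 at -0.60, Serpind1 at -0.49 and Cfb at -0.41. Cholangiocyte markers summed to 256 to 589 TPM in deprived cultures, against 833 to 931 TPM in control cultures, and stellate cell markers to 12.8 to 24.6 TPM, against 35.0 to 41.8 TPM, while hepatocyte markers overlapped; their part in these results was not tested.

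With Ad_Cre, limma called 1 member, F10, at 0.60 (background 0.214% higher and 0.115% lower), with 15 members at an unadjusted p under 0.05. F10 was not called without control replicate 1 or 2 or without any 1 of the deprived replicates of the Ad_Cre groups, and the count was 4 with only these groups in the fit and 6 with voom. The interaction called 0 members (background 0.247% in either direction), with 12 at an unadjusted p under 0.05, 5 called by voom, and 3, 1 and 2 called without Ad_Cont deprived replicate 1, Ad_Cont deprived replicate 2 and Ad_Cre control replicate 3. A difference between the 2 adenoviruses in the deprivation effect was thus not shown. Ad_Cre set against Ad_Cont in control medium called 0 members (background 0.0247%), with 6 at an unadjusted p under 0.05 and 0 by voom. In deprived medium it raised 3 members and lowered 3 (background 0.510% and 0.518%), Serpind1, Mbl2 and Cfb at 0.44, 0.33 and 0.32 and C6, C8b and Serping1 at -0.45, -0.41 and -0.23. These 6 were all lost when only the groups compared entered the fit, the count was 0 without Ad_Cre deprived replicate 2 or 3, and it was 2 without Ad_Cre deprived replicate 1 and 3 without Ad_Cont deprived replicate 2.

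In mouse liver, the members that fell with the deficient diet were mostly those of the membrane pore. Of 43 tested, 0 rose and 6 fell (background over 10820 genes 2.25% and 1.16%), with medians of -0.10 over the members and 0.14 over all genes and 16 members at an unadjusted p under 0.05. Of the 5 terminal components, 4 were lower. C9, which forms the ring of the pore, was at 103, 45.9, 67.1 and 64.6 TPM in deficient livers, against 193, 187.4, 222.8 and 161 TPM in control livers, and fell by 1.48 (SE 0.21, adjusted p = 0.0049). C8a was at 77.5, 33.1, 43.8 and 53.6 TPM, against 141, 125, 131 and 126 TPM, and fell by 1.38 (SE 0.21, adjusted p = 0.00778). C6 was at 24.5, 9.66, 17.6 and 35.9 TPM, against 65.4, 66.2, 83.8 and 75.4 TPM, and fell by 1.82 (SE 0.34, adjusted p = 0.0314). In all 3, every deficient liver lay below every control liver. C8b was at 99.4, 38.4, 64.1 and 86.7 TPM in deficient livers, against 189.8, 159, 201 and 136 TPM in control livers, and fell by 1.31 (SE 0.27, adjusted p = 0.0348). C8g, the remaining chain of C8, was at 278, 293, 297 and 255 TPM, against 377, 345, 366 and 311 TPM, a difference of -0.31 (SE 0.12, adjusted p = 0.123). These too did not overlap, although C8g was not called. C6 and C9 lie apart from C8a and C8b in the genome, on mouse chromosome 15 (mm10 chr15:4727210-4804045, plus strand, and chr15:6445333-6498476, plus strand) and chromosome 4 (chr4:104815680-104876398, minus strand, and chr4:104766317-104804548, plus strand).

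Outside the terminal components, F11 was at 12.8, 12.1, 9.02 and 9.38 TPM in deficient livers, against 20.3, 18.2, 25.7 and 23.9 TPM in control livers, and fell by 0.96 (SE 0.15, adjusted p = 0.00728). Serpina10, the inhibitor of factor Xa that acts with protein Z, was at 79.0, 56.2, 66.6 and 60.8 TPM, against 104, 98.2, 104 and 88.5 TPM, and fell by 0.59 (SE 0.13, adjusted p = 0.0305). C3 was at 2136, 1617, 1894 and 2143 TPM, against 1177, 1464, 1164 and 1510.2 TPM, a difference of 0.55 (SE 0.14, adjusted p = 0.0558). The deficient livers lay below all control livers in F11 and Serpina10 and above them in C3, which was not called. The calls of C9, C8a and F11 held without each column in turn, whereas C6 was not called without 5 of the 8 columns and C8b and Serpina10 without 4 each, and C8b and Serpina10 were not called with no filter. The count of members called was 3 without control column 1, control column 3 or deficient column 3. Hepatocyte markers summed to 56910 to 75370 TPM in deficient livers, against 53860 to 63280 TPM in control livers, and the members took 2.58% of listed TPM in both groups.

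**Figure D5:**
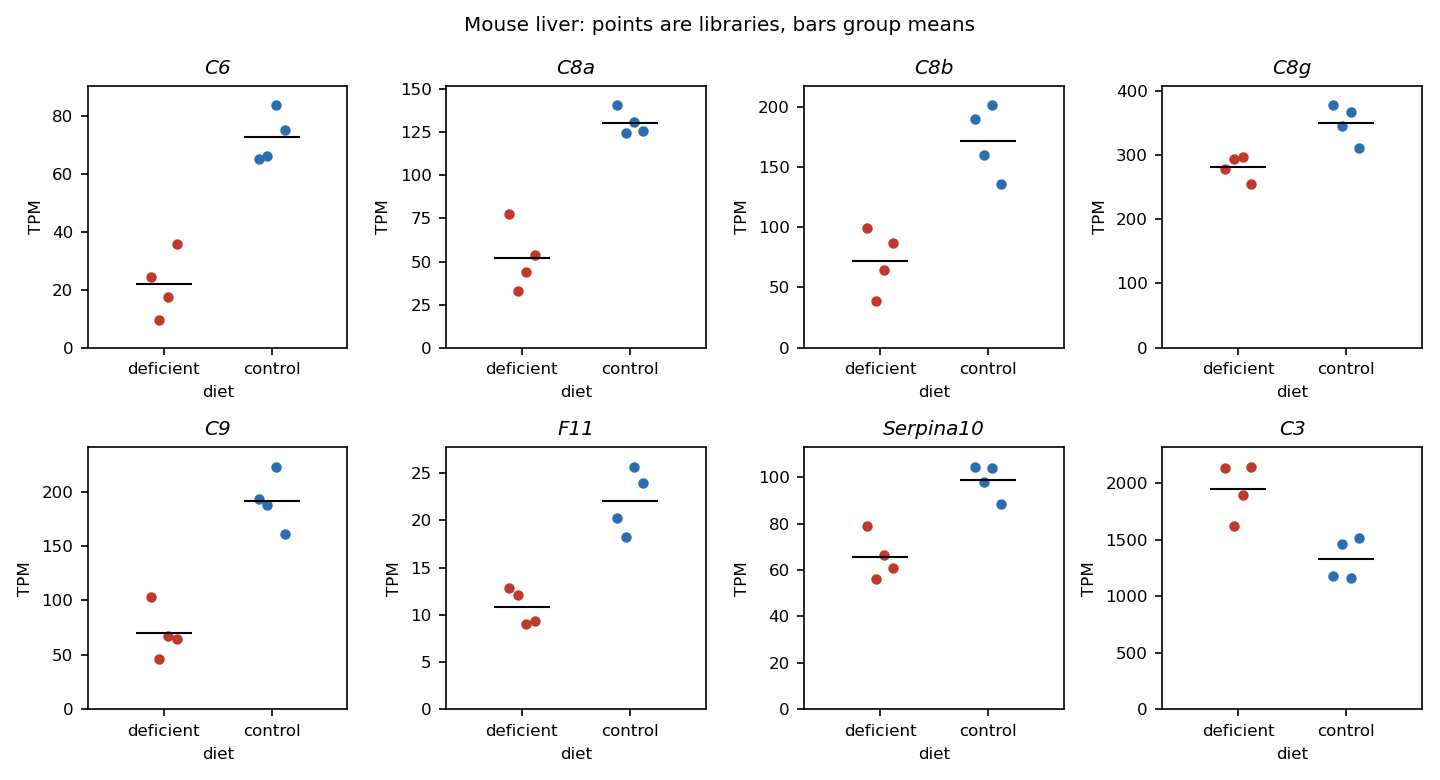
TPM (y axes, from 0) of 8 members in livers of deficient and control mice (x axes); points are the 4 columns of each group and bars are means. C6, C8a, C8b, C9 and F11 have lower means in deficient livers, while C8g and C3 were not called.

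Genes outside the 52 that work with these proteins were read from 6 lists. Over all genes at day 12, 34.0% rose and 18.4% fell. Among 7 genes of the vitamin K cycle, which carboxylates factors such as F2, F7 and F10, 2 rose and 3 fell in HepG2 at day 12. VKORC1, the reductase of that cycle, averaged 154.5 TPM in deprived and 290.4 TPM in control cultures, a fall of 0.91, and its paralogue VKORC1L1 rose by 0.25. Of 5 tested genes of coagulation at the cell surface, 4 rose and 1 fell: F2RL1, a protease-activated receptor, averaged 3.51 TPM in deprived and 0.369 TPM in control cultures, and TFPI, the inhibitor of tissue factor, 64.8 and 152 TPM in deprived and control cultures. Of genes of fibrinolysis, SERPINE2 (protease nexin) averaged 78.0 TPM in deprived and 8.13 TPM in control cultures, a rise of 3.13, and PLAUR and PLAU, the urokinase receptor and urokinase, rose by 1.38 and 0.39. Of 7 tested further complement genes, 2 rose and 4 fell, with CD55, which protects cells from complement, at 8.61 TPM in deprived and 4.20 TPM in control cultures and clusterin (CLU) at 299.7 and 580.2 TPM in deprived and control cultures. Of 6 further protease inhibitors, 2 rose and 3 fell, with SPINK1 raised by 2.72 and SERPINA4 (kallistatin) lowered by 1.44 on the log2 scale. Of 13 liver transcription factors and genes of cytokine signalling, 3 rose and 6 fell: the interleukin 6 receptor IL6R rose by 1.11, SOCS3 by 0.95 and STAT3 by 0.91, while FOXA2, CEBPB and HNF4A fell by 0.43, 0.42 and 0.20. CEBPB and HNF4A did not keep that direction in the other 3 experiments: CEBPB rose by 0.96, 0.80 and 1.06 in the AhR inhibitor and IDO/TDO inhibitor experiments without inhibitor and with the control guide, and HNF4A was at -0.06, 0.02 and 0.28 there, called with the control guide alone. FOXA2 fell in all of them, at -0.81, -0.67 and -0.98.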

How the data were processed

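The authors deposited 8 tables of TPM, made with HOMER per their file headers. The submitters' processing notes also name STAR, Bowtie2, hg38 and mm10, without versions. Per the labels' protocols, libraries of cultured cells read the 3′ ends of transcripts (for liver no kit is given), so TPM, which divides by length, is compared between samples and not between genes. Of 100 labelled samples, 98 columns in 32 groups were used; 2 liver samples were not analysed here. Tables were fitted separately with limma 3.58.1 (R 4.3.3; tables were read by package data.table, release 1.17.8); the fit used log2(TPM + 1), group means and eBayes with trend and robust settings. A gene needed 1 TPM in at least 3 libraries (4 in liver). Tests were two-sided, each of the 32 contrasts had its own Benjamini-Hochberg adjustment with a threshold of 0.05, and the scripts were tested on simulated data. An interaction is the effect with the inhibitor, AhR guide or Ad_Cre minus that without. Low TPM times length gave whole reads in 100% of values checked (within 0.1 of a whole number), which gave the depth and the voom alternative. No replicate pair differed by sampling noise alone (chi-square per gene of at least 1.99). Other settings were a pseudocount of 0.1, no filter, quantile and median scaling, the compared groups alone, the replicate number as a block, voom, and each library left out. The members and lists were chosen with earlier results of these data known. The named members are the 14 with the largest change past the threshold at day 12 and a group mean of at least 10 TPM, and the 3 highest and 3 lowest called in each other contrast; C1S, C1R, SERPING1, C6 and F7 at day 12, C8g and C3 in liver and the remaining values were picked after they were seen. Some genes of the lists outside the members are not reported here.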

Additional observations from a re-analysis of the deposited data

Results flagged for a closer look

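In 4 of 86 liver groups tested, 1 column lay far from the other 3 of its group by Dixon's test; chance gives about 1 in 20 such groups. In deficient livers, F2 was at 1022 TPM in 1 column, against 817 to 851 TPM in the others, Cpb2 at 163 TPM, against 118 to 123 TPM, and Serpinf1 at 372 TPM, against 492 to 515 TPM. In control livers, Mbl2 was at 145 TPM in 1 column, against 212 to 225 TPM in the others.

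In 5 families of interactions, members whose effect differed between 2 settings were listed as the 3 highest and 3 lowest of those called. The deprivation effect at day 12 minus that at day 3 was -2.61 for ITIH3, -2.09 for A2M, -1.76 for ITIH1, 1.20 for C6, 1.47 for SERPING1 and 1.59 for C1S. With the IDO/TDO inhibitor the interaction was -1.62 for C4BPA, -1.59 for C8G, -1.32 for SERPING1, 2.09 for ITIH1, 2.15 for ITIH3 and 2.27 for A2M. With the AhR inhibitor, where the batch of another header date cannot be told apart from the inhibitor, it was -1.43 for MASP1, -1.39 for KNG1, -1.16 for C1S, 0.61 for ITIH2, 0.81 for PROS1 and 1.04 for ITIH1. With the AhR guide it was -0.71 for SERPINA6, -0.53 for SERPINC1, -0.51 for C4BPA, 1.14 for C5, 1.14 for MASP1 and 1.34 for ITIH3. With Kyn it was -2.51 for SERPING1, -1.14 for SERPINA3, -0.91 for CFI, 0.77 for KNG1, 0.83 for F11 and 1.42 for ITIH3.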

How the results depend on the processing

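Of 676 calls of members, 6 were lost with a pseudocount of 0.1, 48 with no filter, 35 with quantile normalization, 33 with median scaling and 24 with voom, and 35 of 562 with the compared groups alone. Median scaling removes the all-gene medians given beside the counts, and it reversed 3 calls: SERPINA6 and CFI between day 3 and day 12 in deprived medium came to 0.033 and 0.052, and SERPINC1 without the IDO/TDO inhibitor came to -0.11. Counts that moved by over 1.5 times were those at day 3 (7 with median scaling or voom), in Caco-2 (10 with quantile normalization), with the IDO/TDO inhibitor (2 with no filter, 10 with voom), with Ad_Cre (0 with no filter, 4 with the compared groups alone, 6 with voom), of the hepatocyte interaction (5 with voom) and of Ad_Cre against Ad_Cont in deprived medium (3 with no filter, 0 with the compared groups alone); the cause was not tested. With each library left out in turn, these counts ran from 1 to 6 at day 3, 9 to 15 in Caco-2, 2 to 5 with the IDO/TDO inhibitor, 0 to 1 with Ad_Cre, 0 to 3 for the hepatocyte interaction and 0 to 7 for Ad_Cre against Ad_Cont, and from 3 to 7 in liver. Same-numbered replicates did not deviate together (correlations of their deviations from -0.11 to 0.19), and with the replicate number as a block 663 calls held and 7 were lost. Liver was left out of that block, and its columns carry no animal number. Each liver came from an animal on 1 diet, so no pairing by animal exists between the diets. Members near 1 TPM rest on few reads.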

Other observations

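Mouse genes that stand for human members without a mouse-case symbol were read in liver as well. Of 15 tested, 0 rose and 2 fell (over all 10820 genes tested in liver, 243 rose and 126 fell). Serpina1e, one of several mouse copies of the alpha-1-antitrypsin gene that can share reads, averaged 142 TPM in deficient livers, against 1910.0 TPM in control livers, and C4bp 183 TPM, against 298 TPM. The copies Serpina1a, Serpina1b, Serpina1c and Serpina1d were not called, at -0.45, -0.09, -0.87 and -0.22. Of these, Serpina1b averaged 3271 TPM in deficient and 3448 TPM in control livers. Hc, the mouse gene for C5, was not called, at -0.10.

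Some liver genes known to differ between male and female mice moved in the same livers; they were picked after their values were seen. Mup20, of a family of near-identical copies, averaged 641.6 TPM in deficient livers, against 6831 TPM in control livers, Cyp4a12a 26.1 TPM, against 84.9 TPM, and Cyp2b9 82.3 TPM, against 0.331 TPM. Their part in the lower C6, C8a, C8b and C9 was not tested.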
